A study of Mus musculus with 38 samples.

Results

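Papillary thyroid carcinoma (PTC) of 10 *BRAF*(+) mice was compared with the asymptomatic thyroid (AT) of 5 *BRAF*(-) mice. The mice were taken by the lesion and the *BRAF*V600E status given in their sample labels, and they made up 15 of the 38 mice whose thyroids were put on arrays. The PTC mice (8 females and 2 males, aged 6 to 21 months, median 11) were transgenic for *BRAF*V600E, a human cDNA driven in thyroid follicular cells by the promoter of bovine thyroglobulin. They belonged to the lines tg2 and tg3, and the *BRAF*(-) AT mice (3 females and 2 males, aged 4 to 12 months, median 11) had no *BRAF*V600E RNA and were by the study nontransgenic animals of the same lines. All mice were of the FVB/N background. The other groups used here, all *BRAF*(+), were 10 borderline lesions (BL; 8 females and 2 males, 4 to 21 months) and 5 AT (4 females and 1 male, 7 to 11 months). In addition, 8 mice with benign hyperplastic lesions (BHL) entered the fit and the values by sex. Of these, 4 were *BRAF*(+) (3 females and 1 male, 4 to 11 months) and 4 *BRAF*(-) (3 females and 1 male, 6 to 24 months). By the study, 1 of the *BRAF*(-) BHL mice was of line tg1 and genotyped as transgenic. Ages are those of the labels, and the age classes in the study's description of the cohort place more PTC mice in the oldest class.

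BRAF is a kinase of the MAPK cascade, in which RAF activates MEK and MEK activates ERK, and the V600E change keeps it active without a signal from RAS. It is the most frequent driver of human PTC, a cancer of the follicular cells that take up iodide, couple it to thyroglobulin and release thyroid hormone under the control of thyrotropin (TSH). Human PTC with this mutation is known for strong ERK output and for low expression of the genes of iodide handling. RNA was extracted from a portion of each gland with all cells it held, so that fewer cells of a type and less RNA per cell cannot be told apart.

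Levels are given as the log2 signal of the deposited RMA values, and a difference of 1 on this scale is a factor of 2. Differences are those of a limma fit over all 38 mice with 6 groups of lesion and *BRAF* status and with sex, given as PTC minus *BRAF*(-) AT with their standard error (SE). A gene was called, and is said to have risen or fallen, at a Benjamini-Hochberg adjusted p under 0.05 over all 35556 probe sets. The limma p-values test a difference against the spread between mice within groups, pooled over all groups of the fit. The *BRAF*(-) AT values are listed throughout in the order of mice M_524, M_771, M_940, M_956 and M_957.

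The arrays were alike in scale, with medians of 6.04 to 6.15 in PTC and 6.00 to 6.12 in *BRAF*(-) AT. On the first principal component of the 15 mice, which held 31.2% of the variance, the PTC mice lay from -36.98 to -11.55 and the *BRAF*(-) AT mice from 33.14 to 66.65. The second component (14% of the variance) had PTC mouse M_700 at 52.96 and *BRAF*(-) AT mouse M_940 at -53.85 as its ends. The mean level of 20 skeletal muscle genes ran from 5.51 to 8.60 in PTC and from 5.68 to 9.46 in *BRAF*(-) AT, with mouse M_940 the highest of all 15. The mean level of 9 brown adipocyte genes was 6.12 to 7.96 in PTC and 7.60 to 9.29 in *BRAF*(-) AT, and that of 12 white adipocyte genes 7.13 to 9.59 in PTC and 9.25 to 9.77 in *BRAF*(-) AT. Fits without mouse M_940 and fits with muscle, white adipocyte and brown adipocyte scores as covariates are therefore given for the main gene groups. The defining markers of follicular cells were high in every gland. *Tg*, which encodes thyroglobulin, was at 13.48 to 13.66 in PTC and 13.63 to 13.74 in *BRAF*(-) AT, near the highest value of the whole data set, 14.18, and the follicular transcription factor gene *Pax8* was at 11.00 or more in every mouse of both groups.

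PTC differed from *BRAF*(-) AT in 6686 of 35556 probe sets (18.8%), of which 3484 were higher and 3202 lower in PTC. Among the 19938 genes that could be named, 2257 rose (11.3%) and 2293 fell (11.5%). The counts given below for lists of genes are to be read beside these shares. Of the genes that rose, 368 did so at least 2-fold, and of those that fell, 143 did so. In 751 genes (3.77%) all 10 PTC mice lay above all 5 *BRAF*(-) AT mice, and in 663 genes (3.33%) all PTC mice lay below them. The median difference over all genes was -0.04. The split between higher and lower depended on the scaling, since arrays centred on their medians gave 2941 higher and 4454 lower probe sets, and quantile normalization gave 2836 and 4269. Without *BRAF*(-) AT mouse M_940 the count was 3935 probe sets, and with the muscle and adipocyte scores in the fit it was 2814.

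The largest increase was in a gene of the lung surfactant. *Sftpb*, which encodes the surfactant protein that spreads the lipid film of the alveoli, was at 12.21, 12.66 and 12.97 (lowest, median and highest) in PTC and at 6.40, 6.30, 6.29, 6.30 and 6.05 in *BRAF*(-) AT. The groups lay far apart and each was narrow. The difference was 6.37 (SE 0.26, 82.9-fold, limma adjusted p = 1.55e-18). *Sftpa1*, a collectin that binds microbes, had 10.17, 10.81 and 13.02 in PTC and 5.71, 6.35, 6.14, 6.07 and 6.17 in *BRAF*(-) AT. *Sftpd*, a second collectin, had 8.96, 9.92 and 12.06 in PTC and 5.67, 6.14, 6.18, 5.86 and 5.24 in *BRAF*(-) AT. Neither gene had a PTC mouse within the range of *BRAF*(-) AT, and the PTC mice spread more widely than for *Sftpb*. Their differences were 5.33 (SE 0.40) and 4.46 (SE 0.37). The genes whose products process or recycle surfactant rose less. *Napsa*, a protease of surfactant precursors, rose by 1.63 (SE 0.19), *Ctsh*, a cathepsin with the same substrates, by 0.91 (SE 0.15), and *Slc34a2*, a phosphate carrier of alveolar and other epithelia, by 2.52 (SE 0.34). Of the 10 genes of this list 6 rose and all 6 were separated between the groups, and 1 fell. It was *Sftpc*, which encodes the remaining surfactant protein (-0.44, named after its values were seen). *Sftpc* was not called without mouse M_358, M_359, M_524, M_686, M_940 or M_956. The list median was 1.27, against -0.04 for all genes. Of the airway epithelium list, 0 of 10 genes rose and 1 fell, *Scgb1a1*, the secretoglobin of club cells.

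The *Sftpb* promoter is shown because *Sftpb* was the gene with the largest difference and the only 1 with an AP-1 motif there among the 12 of the 15 highest genes whose promoters were in the table. AP-1 is the dimer of FOS and JUN proteins that ERK activates. The 300 bases from 250 before to 50 after the start site on chromosome 6 (RefSeq, GRCm38.p6, chr6:72304360-72304659, plus strand) read as follows, with the motif TGANTCA in capitals; its first base lies at position -18 from the start site.

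Sftpb promoter: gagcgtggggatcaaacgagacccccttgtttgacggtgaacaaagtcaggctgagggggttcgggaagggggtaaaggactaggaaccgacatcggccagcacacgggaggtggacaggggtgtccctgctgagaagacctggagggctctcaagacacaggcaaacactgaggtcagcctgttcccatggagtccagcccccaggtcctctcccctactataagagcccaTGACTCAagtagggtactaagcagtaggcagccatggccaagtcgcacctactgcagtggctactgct

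Of the 13 promoters of these 12 genes, 1 held the motif (7.69%), and so did 7.81% of all 32851 promoters in the table. The motif was searched on both strands and its match is a description of these letters.

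*Chil1* and *Lcn2* had the next largest differences after *Sftpb*. *Chil1*, a secreted chitinase-like glycoprotein whose human counterpart is raised in PTC, was at 10.43, 11.54 and 12.34 in PTC and at 5.32, 4.96, 5.51, 5.32 and 5.04 in *BRAF*(-) AT, a difference of 6.23 (SE 0.40, 75.0-fold). *Lcn2*, a lipocalin that binds bacterial siderophores, was at 10.42, 11.19 and 12.57 in PTC and at 5.50, 5.74, 5.36, 7.25 and 4.92 in *BRAF*(-) AT, a difference of 5.70 (SE 0.37). For *Lcn2* mouse M_956 was the highest of the *BRAF*(-) AT mice and still lay over 3 log2 units below every PTC. Besides these 2, *Cp* (ceruloplasmin, 1.46), *Lyz1* and *Lyz2* (lysozymes, 1.44 and 1.07) rose among the 16 measured genes of secreted defence proteins, and 0 fell. The acute phase genes of the same list, *Saa1*, *Saa2*, *Saa3* and *Hp*, had differences from -0.31 to 0.05 and were not called; these 4 were singled out after their values were seen.

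*Gng4*, a gamma subunit of G proteins that is mainly known from the nervous system, had 10.74, 11.53 and 12.10 in PTC and 6.99, 7.77, 6.21, 6.14 and 5.84 in *BRAF*(-) AT, a difference of 4.98 (SE 0.35). The 2 male *BRAF*(-) AT mice were the highest of their group. In the list of G protein and calcium signalling, 7 of 18 genes rose and 3 fell (1 without mouse M_956). The others that rose included *Itpr3*, a calcium channel of the endoplasmic reticulum (1.26), *Adcy3*, an adenylate cyclase (1.15), *Rgs4*, an inhibitor of G protein signals (1.06), and *Plcg2*, a phospholipase (0.95), while the phospholipase gene *Plcb4* fell (-0.96). Without *Gng4* the members of this list lay between -0.96 and 1.26.

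The remaining genes of the 15 highest had differences of 3.86 to 4.40. They were *Elapor2* (4.40), *St8sia6*, a sialyltransferase (4.38), *Lrrn1*, a leucine-rich repeat protein of neurons (4.18), *Sptlc3*, a subunit of the enzyme that starts sphingolipid synthesis (4.14), *Lratd1* (4.04), the lipase genes *Lipi* (3.98) and *Lipk* (3.86), *Tacr3*, the receptor of neurokinin B (3.94), and *Cntn3*, a contactin (3.94). All 15 had every PTC above every *BRAF*(-) AT mouse. *Lrrn1* had 9.10, 9.77 and 10.30 in PTC and 8.65, 4.84, 5.53, 4.45 and 4.38 in *BRAF*(-) AT, so that mouse M_524 lay near the PTC mice and the SE, 0.66, was the widest of the 15. All 15 remained called with the muscle and adipocyte scores in the fit and in each fit that left out 1 mouse of the groups compared.

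**Figure D1:**
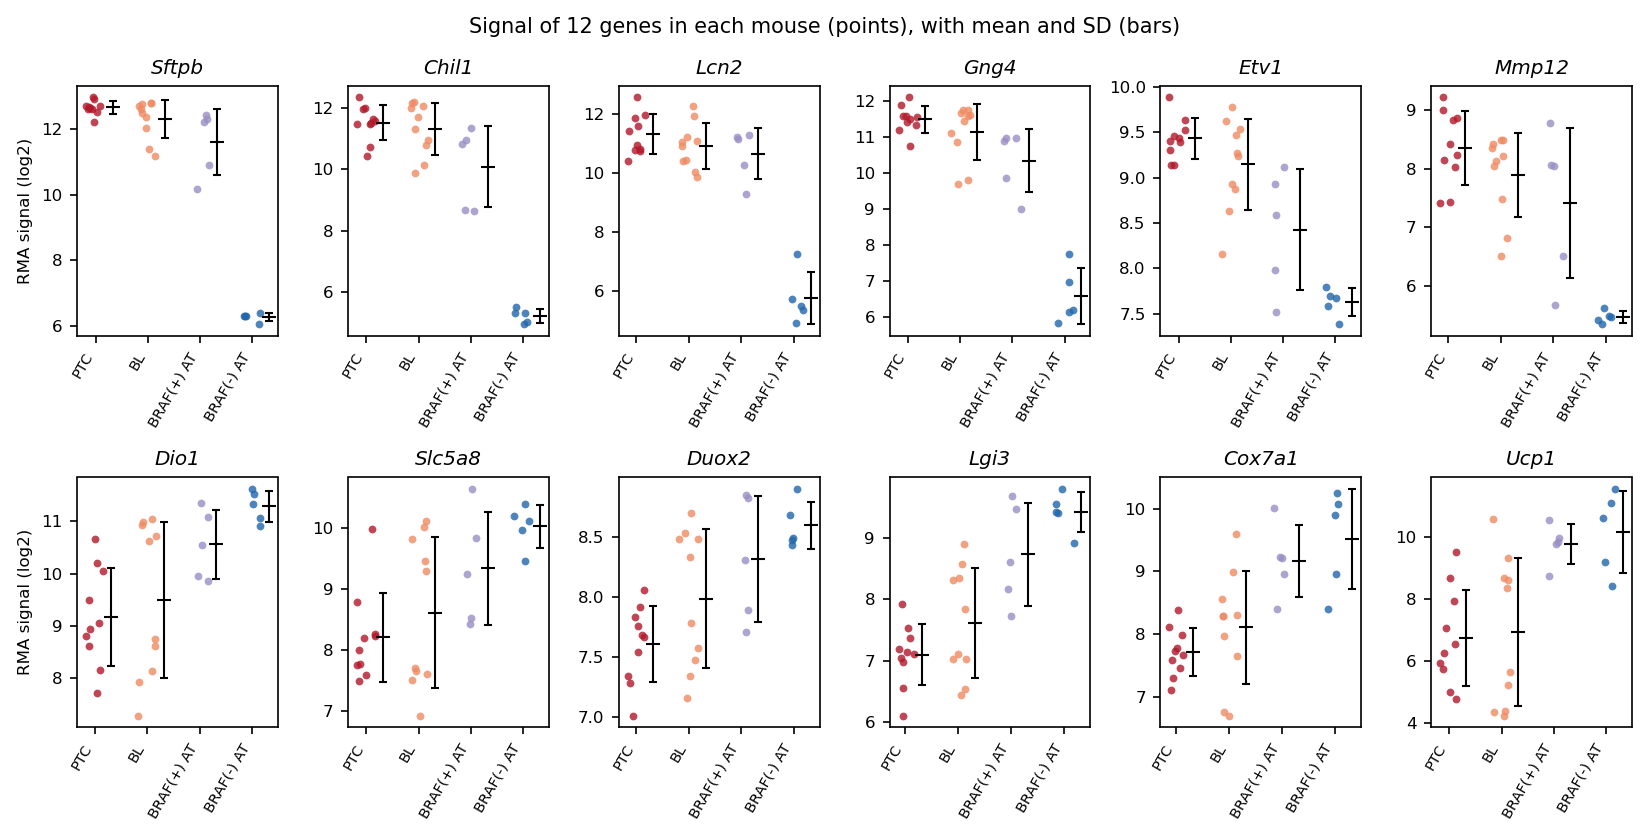
Log2 RMA signal of 12 genes in each PTC, BL, *BRAF*(+) AT and *BRAF*(-) AT mouse (points), with the group mean and SD (bars). For *Sftpb* the PTC mice sit at 12.21 to 12.97 and the *BRAF*(-) AT mice at 6.05 to 6.40, and for *Dio1* every PTC lies below every *BRAF*(-) AT mouse.

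BL and *BRAF*(+) AT show where along the *BRAF*(+) lesions these levels lay. PTC and BL differed in 0 of 35556 probe sets by limma (0%), 0 by the exact Wilcoxon rank test, and 774 at an unadjusted p under 0.05. For the 15 highest genes PTC minus BL was 0.17 to 0.64. PTC differed from *BRAF*(+) AT in 5309 probe sets (14.9%; 3020 higher and 2289 lower), and *BRAF*(+) AT from *BRAF*(-) AT in 91 (0.256%; 79 higher and 12 lower). These comparisons share mice with the main one, and each is given for its own values. Of the 15 highest genes, 13 were called in *BRAF*(+) AT against *BRAF*(-) AT, and 10 in PTC against *BRAF*(+) AT. *Sftpb* had a mean of 12.66 ± 0.21 in PTC (SD, n = 10), 12.31 in BL, 11.61 in *BRAF*(+) AT and 6.27 ± 0.13 in *BRAF*(-) AT (SD, n = 5). *Elapor2* had means of 9.17 in PTC, 8.53 in BL, 7.44 in *BRAF*(+) AT and 4.83 in *BRAF*(-) AT. The exceptions in *BRAF*(+) AT against *BRAF*(-) AT were *Lrrn1* (2.38, limma adjusted p = 0.223) and *Lipi* (2.21, limma adjusted p = 0.0745). In all 15 highest and all 15 lowest genes the mean of *BRAF*(+) AT lay between those of PTC and *BRAF*(-) AT. The lowest 15 genes, described below, had smaller differences in the main comparison (-3.09 to -1.70, against 3.86 to 6.37). Of them 0 were called in *BRAF*(+) AT against *BRAF*(-) AT, with 5 mice in each group, and 11 in PTC against *BRAF*(+) AT. *BRAF*(+) AT mouse M_779 weighed on these counts, since without it PTC differed from *BRAF*(+) AT in 2486 probe sets and *BRAF*(+) AT from *BRAF*(-) AT in 288.

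*Braf* itself, whose probe set was designed for the mouse gene, had 9.49, 9.88 and 10.33 in PTC and 8.99, 9.31, 8.78, 9.23 and 9.33 in *BRAF*(-) AT. The groups did not overlap, with a difference of 0.71 (SE 0.14, 1.64-fold). How far the probe set also read the human transgene was not tested. Of 8 measured genes of the RAF, MEK and ERK cascade 5 rose and 0 fell, and without mouse M_940 3 rose. The others were *Araf* (0.20), *Nras* (0.29) and the genes of the RAS inhibitors *Rasa1* (0.96) and *Nf1* (0.73). *Rasa1* was at 9.39, 9.66 and 10.10 in PTC and at 8.60, 8.92, 8.31, 8.75 and 9.08 in *BRAF*(-) AT, with no overlap.

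Of 18 genes known to be switched on by ERK, 12 rose, 0 fell and 6 were not called (median 0.78), where 11.3% of all genes rose. The count of those that rose was 12 without mouse M_940, 10 with the muscle and adipocyte scores and 11 in females alone. *Ccnd1*, the cyclin that drives entry into the cell cycle, had 10.41, 11.05 and 11.16 in PTC and 9.38, 9.90, 8.78, 8.52 and 8.85 in *BRAF*(-) AT. The groups were apart, and the 2 male *BRAF*(-) AT mice were again the highest of their group. The difference was 1.86 (SE 0.26, limma adjusted p = 6.81e-06). The ETS transcription factor gene *Etv1* had 9.14, 9.42 and 9.89 in PTC and 7.58, 7.70, 7.38, 7.67 and 7.79 in *BRAF*(-) AT, a difference of 1.75 (SE 0.21). *Egr1*, an immediate early transcription factor, had 8.44, 9.28 and 9.83 in PTC and 7.42, 7.03, 8.45, 7.22 and 7.35 in *BRAF*(-) AT, where mouse M_940 lay among the PTC mice, and the difference was 1.69 (SE 0.27).

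The inhibitors that ERK induces against its own pathway were raised unequally. Among the phosphatases of ERK, *Dusp5* rose by 1.12 (SE 0.22) and *Dusp6* by 0.99 (SE 0.16), and both were separated between the groups. *Dusp6* had 9.23, 9.82 and 10.04 in PTC and 8.69, 8.57, 8.92, 8.62 and 8.82 in *BRAF*(-) AT. *Spred1*, a brake on RAF activation, rose by 1.22 (SE 0.21). The Sprouty genes, named after their values were seen, moved little, with differences of 0.45 for *Spry2*, which was called, 0.22 for *Spry4* and 0.01 for *Spry1*. Of the 14 immediate early genes 4 rose and 1 fell (2 without mouse M_415). *Nr4a2*, an orphan nuclear receptor, rose by 1.46 with no overlap between the groups, and *Egr2*, *Junb* and *Btg2* rose by 0.57 to 0.70, whereas *Jun* had 8.71, 9.29 and 9.77 in PTC and 9.77, 9.77, 10.09, 10.04 and 9.65 in *BRAF*(-) AT and fell by 0.58 on the log2 scale.

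The *Dusp5* promoter is shown because it held the only CArG box among the 12 promoters found for 10 of the 18 ERK output genes. The CArG box is bound by serum response factor, which works with ETS factors that ERK phosphorylates. In the 300 bases on chromosome 19 (RefSeq, GRCm38.p6, chr19:53528895-53529194, plus strand), 2 adjacent boxes, in capitals, begin at positions -82 and -72 from the start site.

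Dusp5 promoter: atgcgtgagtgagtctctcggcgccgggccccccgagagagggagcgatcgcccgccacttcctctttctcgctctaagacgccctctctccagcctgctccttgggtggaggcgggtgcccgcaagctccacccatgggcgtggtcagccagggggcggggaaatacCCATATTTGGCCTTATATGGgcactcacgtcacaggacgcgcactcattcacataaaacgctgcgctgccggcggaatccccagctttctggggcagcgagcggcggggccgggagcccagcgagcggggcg

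A CArG box was found in 1.63% of all 32851 promoters on either strand. The AP-1 motif (7.81% of all promoters) and the ETS core CCGGAAG (8.86% of all promoters) were in 0 of the 12 promoters of ERK output genes.

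Upstream of RAS, 9 of 17 genes of receptor tyrosine kinases and their ligands rose and 4 fell, with a median of 0.46. *Ereg*, the EGF receptor ligand epiregulin, had 6.92, 8.02 and 9.14 in PTC and 5.06, 5.20, 4.77, 5.18 and 4.95 in *BRAF*(-) AT, a difference of 3.02 (SE 0.42, 8.11-fold). *Hbegf*, another ligand of the family, rose by 1.22 (SE 0.25). Both ligands were separated between the groups. Among the receptors, *Erbb3* (1.16), *Epha2* (1.16), *Igf1r* (0.999) and *Met* (0.92) rose. *Erbb4* (0.87), *Erbb2* (0.77) and *Axl* (0.46), named after their values were seen, rose too. *Met*, the receptor of hepatocyte growth factor, had 7.80, 8.41 and 8.82 in PTC and 6.90, 7.11, 7.34, 7.43 and 7.90 in *BRAF*(-) AT, and mouse M_957 overlapped with the lowest PTC mice. The 4 that fell, named after their values were seen, were *Fgfr3* (-0.91), *Ret* (-0.87), *Egfr* (-0.83), which encodes a receptor of both ligands, and *Fgfr2* (-0.75).

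The genes of thyroid function fell in part. Of 13 measured genes of thyroglobulin, iodide handling and hormone synthesis, 5 fell, 0 rose and 8 were not called, with a median of -0.19. The 3 largest decreases of this list were in transporter genes. *Slc5a8*, a monocarboxylate carrier of the apical follicular membrane, had 7.49, 8.10 and 9.99 in PTC and 10.40, 10.21, 9.46, 9.98 and 10.12 in *BRAF*(-) AT, and PTC mouse M_700 was the only PTC within the range of *BRAF*(-) AT. The difference was -1.62 (SE 0.41, 3.07-fold lower, limma adjusted p = 0.00537). *Slc5a5*, the sodium iodide symporter that brings iodide into the cell, had 7.87, 9.60 and 10.71 in PTC and 11.74, 11.58, 11.12, 9.99 and 10.76 in *BRAF*(-) AT, and 7 of the 10 PTC mice lay below the lowest *BRAF*(-) AT mouse. Its difference was -1.31 (SE 0.40, limma adjusted p = 0.0191, and 0.0773 without mouse M_940). *Slc26a7*, an anion carrier of the apical membrane, fell by 1.04 on the log2 scale (SE 0.25).

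Of the genes that oxidise or save iodide, *Duox2*, the source of hydrogen peroxide for iodination, had 7.01, 7.67 and 8.06 in PTC and 8.69, 8.90, 8.496, 8.44 and 8.48 in *BRAF*(-) AT. All PTC mice were lower, and the difference was -0.90 (SE 0.22). *Iyd*, which recovers iodide from iodotyrosines, fell by 0.59 (SE 0.15). *Tg* had a difference of -0.11 (SE 0.05, limma adjusted p = 0.133) and was not called, and *Duox1*, *Duoxa1*, *Duoxa2*, *Ano1*, *Kcnq1*, *Kcne2* and *Slc26a4* lay between -0.41 and 0.37 with no call. *Slc26a4*, which encodes pendrin, was at 4.42 to 7.62 in PTC, with mouse M_347 far above the rest, and at 4.11 to 4.67 in *BRAF*(-) AT. Thyroid peroxidase, the enzyme that couples iodide to thyroglobulin, was not analysed here. With the muscle and adipocyte scores in the fit, 1 of the 13 genes, *Iyd*, stayed called, and without mouse M_940 the count was 4.

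*Tshr*, which encodes the TSH receptor, was at 8.52, 9.31 and 9.96 in PTC and at 10.28, 10.62, 9.76, 10.31 and 10.31 in *BRAF*(-) AT, a difference of -0.93 (SE 0.25), and 9 of the 10 PTC mice lay below every *BRAF*(-) AT mouse. The transcription factors of the follicular cell moved less. *Pax8* fell by 0.31 (SE 0.11, limma adjusted p = 0.0437, and 0.0944 without mouse M_940), *Glis3* rose by 0.55 (SE 0.17, limma adjusted p = 0.0197, and 0.108 without mouse M_956), and *Nkx2-1* (0.24), *Foxe1* (-0.27) and *Hhex* (0.46) were not called. Of these 6 genes, *Tshr* included, 2 fell and 1 rose. The count that fell was 1 without mouse M_347, M_358, M_359, M_364, M_415, M_524, M_686, M_700, M_771, M_940 or M_957. The count that rose was 0 without mouse M_940, M_956 or M_957. *Glis3* was at 9.40 and 9.44 in the male *BRAF*(-) AT mice and at 8.25 to 8.62 in the females, against 9.03 to 9.71 in PTC.

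In the metabolism and reception of thyroid hormone, 5 of 8 genes fell, 0 rose and the median was -0.55. The count was 5 without mouse M_940, 5 in females alone and 0 with the muscle and adipocyte scores. *Dio1*, the deiodinase that converts thyroxine to triiodothyronine in thyroid and liver, had 7.71, 8.99 and 10.65 in PTC and 11.62, 11.52, 11.33, 10.90 and 11.06 in *BRAF*(-) AT. Every PTC lay below, over a range of nearly 3 log2 units, and the difference was -1.87 (SE 0.48, 3.65-fold lower, limma adjusted p = 0.00632). With the scores it was -1.20 (limma adjusted p = 0.11). *Slc16a10*, a carrier of thyroid hormone and aromatic amino acids, had 5.57, 5.94 and 6.37 in PTC and 6.62, 6.34, 7.12, 7.15 and 7.31 in *BRAF*(-) AT, and its difference was -0.98 (SE 0.19). The receptor genes *Rxrg* (-0.70), *Thrb* (-0.67) and *Thra* (-0.44) also fell. *Dio2* (0.38) and *Dio3* (0.16), the other two deiodinases, were not called.

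**Figure D2:**
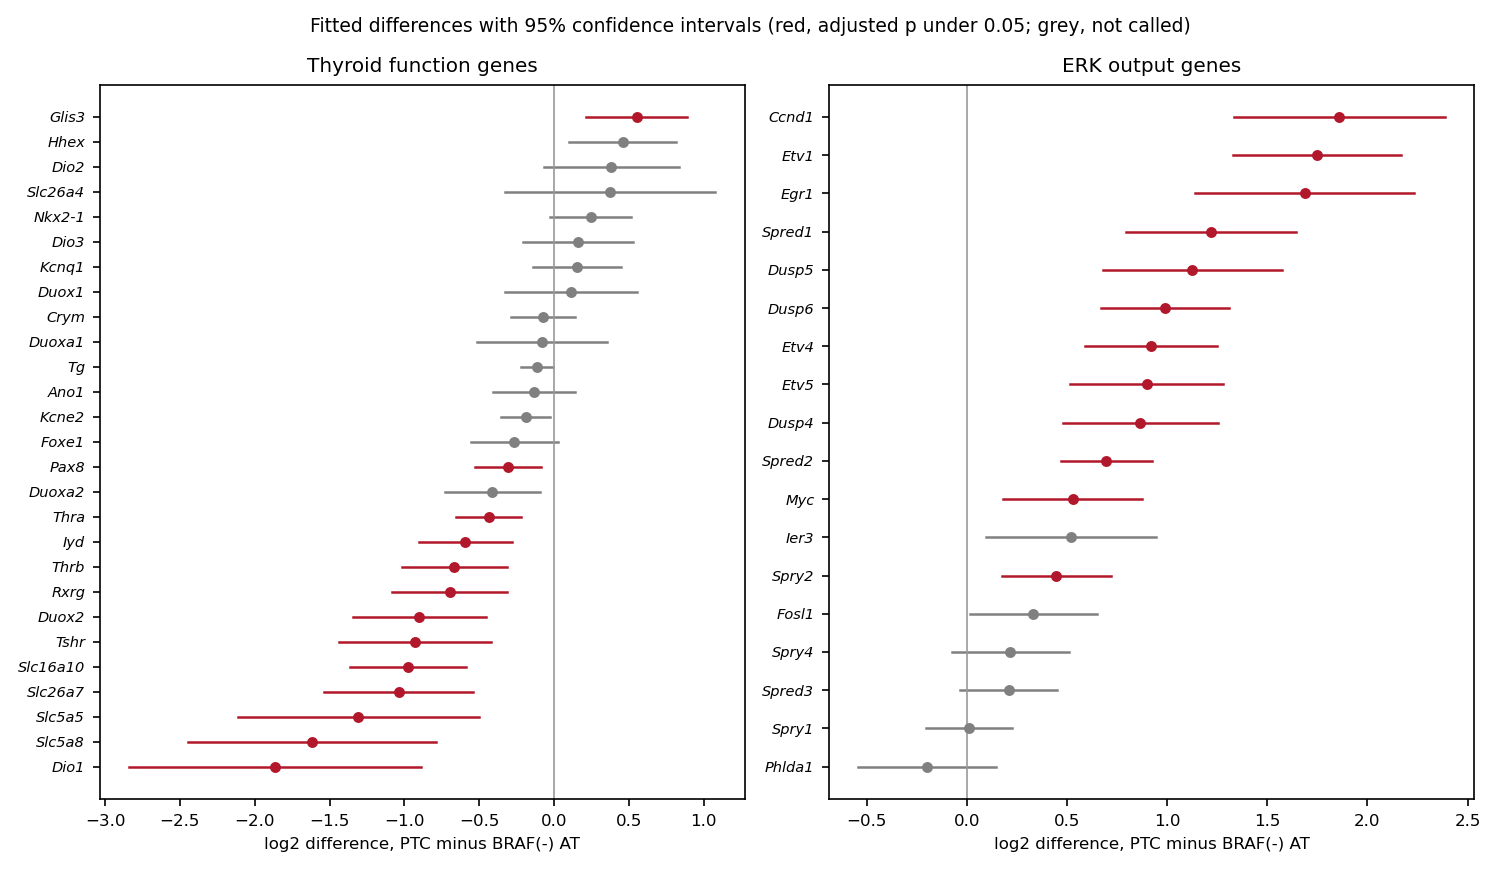
Fitted log2 differences, PTC minus *BRAF*(-) AT, with 95% confidence intervals for 27 genes of thyroid function and 18 genes of ERK output (red, adjusted p under 0.05; grey, not called). *Dio1* and *Slc5a8* lie at the low end (-1.87 and -1.62) and *Ccnd1*, *Etv1* and *Egr1* at the high end (1.86, 1.75 and 1.69).

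Of 17 collagen genes 5 rose and 0 fell (median 0.41), with 9 higher without PTC mouse M_1002 and 3 without *BRAF*(-) AT mouse M_956, and of 16 other matrix genes 6 rose and 1 fell (median 0.48). The fibrillar collagen genes *Col1a1* (0.74), *Col1a2* (0.54) and *Col3a1* (0.37), named after their values were seen, were not called, while *Col9a1* (1.38), *Col12a1* (1.11), *Col5a2* (1.09), *Col8a1* (0.95) and *Col4a2* (0.46) rose. *Vcan*, the proteoglycan versican, had 7.76, 8.61 and 9.24 in PTC and 6.47, 6.70, 6.53, 7.09 and 7.25 in *BRAF*(-) AT, a difference of 1.68 (SE 0.27). *Postn*, the matricellular protein periostin, had 10.12, 10.78 and 11.20 in PTC and 8.75, 9.001, 9.86, 8.84 and 9.61 in *BRAF*(-) AT, a difference of 1.34 (SE 0.33). The groups did not overlap for either gene. *Thbs2* rose by 1.55 (SE 0.30), and the laminin gene *Lamb1* fell by 0.74. Fibronectin (*Fn1*), a known mark of human PTC, had 10.12, 11.72 and 12.12 in PTC and 9.68, 9.86, 10.22, 10.26 and 10.15 in *BRAF*(-) AT. Its lowest PTC mouse lay within the *BRAF*(-) AT range, and the difference was 1.27 (SE 0.24).

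Among 22 matrix proteases and inhibitors 7 rose and 1 fell (median 0.42), and 0 fell without mouse M_940. *Mmp12*, the macrophage elastase, had 7.42, 8.32 and 9.22 in PTC and 5.46, 5.48, 5.34, 5.42 and 5.62 in *BRAF*(-) AT, a difference of 2.87 (SE 0.42, 7.30-fold). *Timp1*, an inhibitor of metalloproteinases, had 7.19, 8.69 and 9.68 in PTC and 5.64, 5.98, 6.69, 6.79 and 6.45 in *BRAF*(-) AT, a difference of 2.12 (SE 0.41). Both were separated. *Plaur*, the urokinase receptor, rose by 1.12 and *Adamts1*, *Adam12* and *Adam8* by 0.67 to 0.83. *Mmp9*, *Mmp2* and *Mmp14*, singled out after their values were seen, had differences of 0.08, 0.12 and 0.39 and were not called.

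In TGF-beta and activin signalling 9 of 19 genes rose and 2 fell (median 0.45). *Tgfbi*, a matrix protein induced by TGF-beta, had 10.29, 11.50 and 12.09 in PTC and 8.75, 8.90, 9.34, 9.45 and 9.38 in *BRAF*(-) AT, a difference of 2.08 (SE 0.29). The activin subunit genes *Inhbb* (1.499) and *Inhba* (1.02) rose, each with all PTC mice above all *BRAF*(-) AT mice. Of the LTBP family *Ltbp2* (1.45) rose and *Ltbp1* (-0.77) fell, and *Bmp7*, a bone morphogenetic protein, fell too (-1.06). Of 9 genes of the epithelial-mesenchymal transition, *S100a4* (0.82) and *Vim* (0.39) rose and *Twist2* (-0.44) fell, where 11.3% of all genes rose and 11.5% fell. Of the 2 increases, 1 was called without mouse M_358, M_359, M_415, M_524, M_686, M_940 or M_957.

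Among 23 keratins and junction proteins 8 rose and 2 fell, where 11.3% of all genes rose and 11.5% fell. In fits without 1 mouse, 1 to 4 were lower. *Krt20*, a keratin of intestinal and urothelial cells, had 6.67, 7.71 and 10.35 in PTC and 3.88, 4.68, 4.82, 4.26 and 4.62 in *BRAF*(-) AT, a difference of 3.83 (SE 0.47). Of the claudins of tight junctions, *Cldn2*, which forms a cation pore, had 7.05, 7.45 and 7.94 in PTC and 5.22, 5.05, 5.18, 5.24 and 5.55 in *BRAF*(-) AT, and *Cldn6* had 7.36, 7.78 and 8.19 in PTC and 8.95, 9.05, 9.33, 8.75 and 8.56 in *BRAF*(-) AT. Neither pair of groups overlapped, and the differences were 2.23 (SE 0.24) and -1.08 (SE 0.23).

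Genes of mitosis and DNA replication had 9 of 21 higher and 0 lower, with a median of 0.47. *Mki67*, the Ki-67 antigen of dividing cells, had 6.37, 7.12 and 7.43 in PTC and 5.26, 5.61, 5.57, 5.23 and 6.60 in *BRAF*(-) AT, where mouse M_957 overlapped with PTC, and the difference was 1.29 (SE 0.31). *Top2a* (1.12), *Ccna2* (1.06), *Cdk1* (0.88), *Kif11* (0.87) and *Ccnb2* (0.78) also rose. This count was 6 without mouse M_940, 3 without mouse M_956, 2 in females alone and 0 with the muscle and adipocyte scores. Of 9 genes of CDK inhibitors and senescence, *Cdkn2b* rose (0.50) and *Cdkn1c* fell (-0.29), where 11.3% of all genes rose and 11.5% fell. In fits without 1 mouse, 1 to 2 were higher and 0 to 1 lower.

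Markers of macrophages were higher, with 11 of 17 genes rising, 0 falling and a median of 0.89. *Clec4n*, a C-type lectin that binds fungal mannans, had 5.30, 7.14 and 7.59 in PTC and 4.28, 4.26, 4.29, 4.68 and 4.49 in *BRAF*(-) AT, a difference of 2.43 (SE 0.40). *Fcgr2b*, the inhibitory Fc receptor, had 8.06, 8.91 and 9.36 in PTC and 6.89, 6.98, 7.40, 7.90 and 7.84 in *BRAF*(-) AT, a difference of 1.52 (SE 0.26). *Mrc1* (1.15), *Tyrobp* (1.01), *Cd68* (0.97) and *Adgre1* (0.94) rose with overlap. The 3 female *BRAF*(-) AT mice were higher than the males for *Adgre1* (7.52 to 7.63 in females and 5.97 to 6.26 in males), and its call was lost without mouse M_524 (limma adjusted p = 0.0761). In females alone 2 of the 17 genes rose. The mean level of the 17 genes was 7.17 to 8.30 in PTC and 6.66 to 7.51 in *BRAF*(-) AT.

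T cell markers (0 of 9), B cell markers (0 of 9) and neutrophil markers (1 of 10, *Csf3r*) had medians of 0.21, -0.04 and -0.06. The 9 genes of MHC class II and dendritic cells had a median of 0.71, and *Itgax* (1.49) and *H2-DMa* (0.84) rose. Their count was 4 without mouse M_940 and 1 in each of 11 other fits without 1 mouse. *Jchain*, of plasma cells, had a difference of 2.17 and was not called. Among 24 chemokine genes 8 rose and 4 fell (7 and 2 without mouse M_940). *Ccl17*, a ligand of the receptor CCR4, was at 6.48, 7.83 and 9.40 in PTC and at 5.86, 5.43, 5.67, 6.12 and 5.52 in *BRAF*(-) AT, a difference of 2.20 (SE 0.45), and its partner *Ccl22* rose by 1.06 (SE 0.38). *Ccl6* (1.69), *Ccl8* (1.31) and *Ccl9* (1.18), chemokines of the myeloid cells, rose, and *Ccl11*, the eotaxin, fell (-1.12). Endothelial genes had 1 of 17 higher (*Angpt2*, 0.71) and 1 lower (*Emcn*, -0.54), and fibroblast and pericyte genes 1 of 12 higher (*Pdgfrb*, 0.44) and 1 lower (*Gli1*, -0.23). Without mouse M_940 the endothelial counts were 0 higher and 3 lower, and the fibroblast and pericyte counts 0 and 0.

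**Figure D3:**
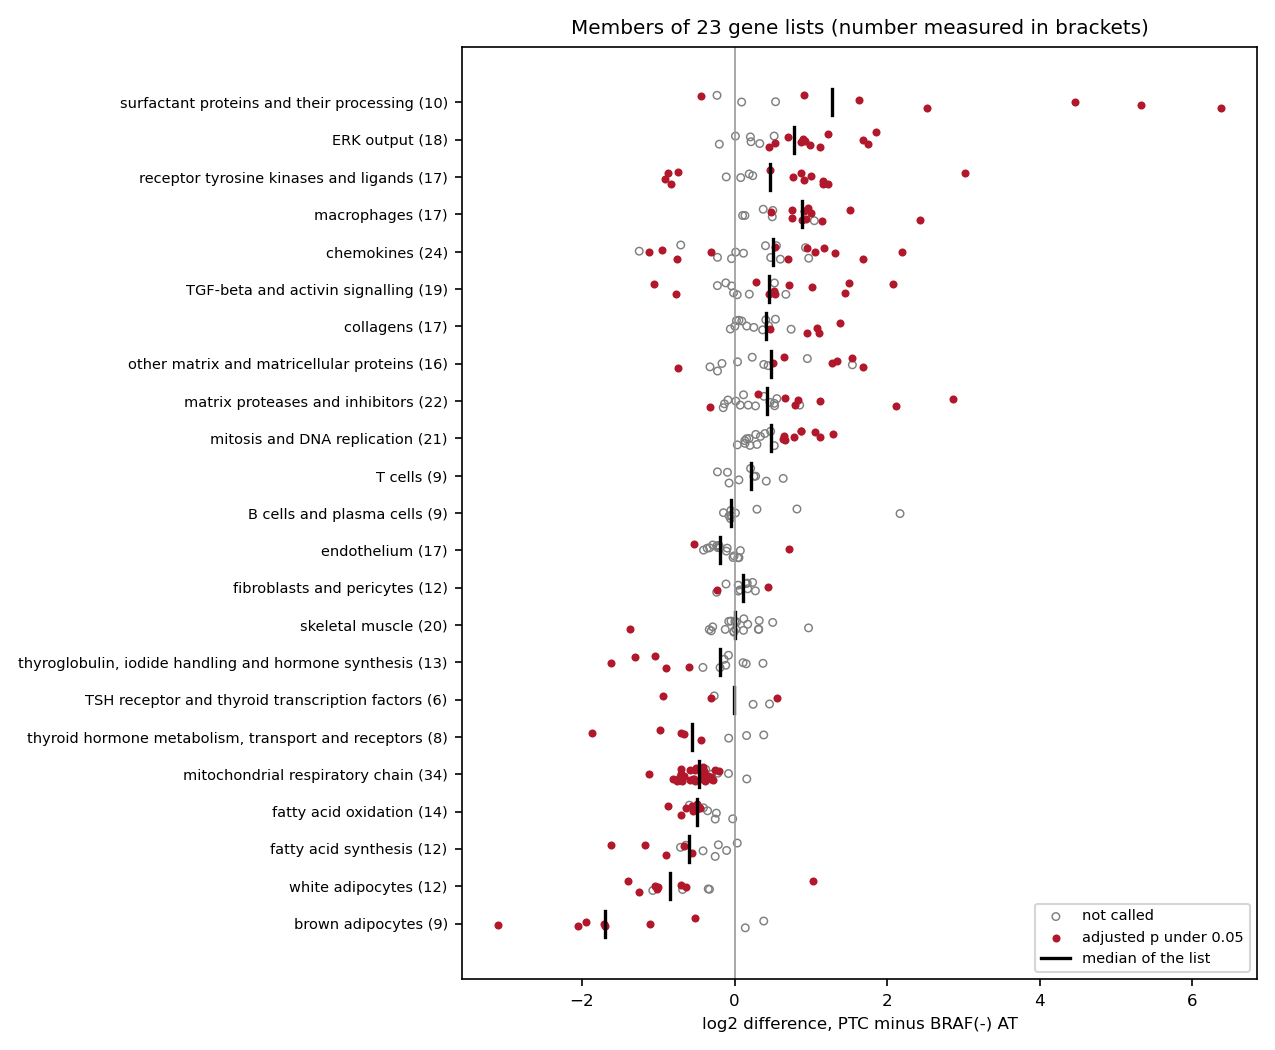
Log2 difference, PTC minus *BRAF*(-) AT, of each measured member of 23 gene lists (filled, adjusted p under 0.05; open, not called), with the median of each list as a bar. The surfactant list has the highest median, 1.27, and the brown adipocyte list the lowest, -1.70.

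The 15 genes with the largest decreases were smaller in effect, from -3.09 to -1.70, and 9 of them had all PTC mice below all *BRAF*(-) AT mice. In each fit that left out 1 mouse of the groups compared, 10 of the 15 stayed called, and *Ucp1*, *Scgb1a1*, *Cox8b*, *Elovl3* and *Cidea* each lost the call in at least 1 such fit. 5 were genes of brown adipocytes. *Ucp1*, the uncoupling protein that makes heat, had 4.77, 6.41 and 9.52 in PTC and 10.61, 8.41, 9.18, 11.07 and 11.54 in *BRAF*(-) AT, a difference of -3.09 (SE 0.96). *Cox8b* (-2.04), *Elovl3* (-1.95), *Cox7a1* (-1.71) and *Cidea* (-1.70), further genes of that cell type, fell with it, and *Cox7a1* was without overlap. Of the 9 genes on the brown adipocyte list 7 fell and 0 rose (median -1.70), and of 12 white adipocyte genes 7 fell (median -0.85) and 1 rose, *Cd36* (1.02). Without mouse M_940 the counts that fell were 3 and 3. The brown adipocyte count was also 3 without mouse M_686, M_956 or M_957, and the white adipocyte count was 2 without mouse M_524 and 4 without M_348, M_686 or M_956. With the muscle and adipocyte scores in the fit, which are the mean levels of these same lists, 0 genes of either list fell, and the differences of *Elovl3* and *Cidea* became 0.05 and 0.22. White and brown fat lie around the thyroid, and the part of fat in the dissected tissue in these differences was not tested beyond that fit.

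Of the other 10, *Lgi3*, a secreted protein of the LGI family, had 6.10, 7.13 and 7.93 in PTC and 9.56, 9.80, 9.43, 8.93 and 9.41 in *BRAF*(-) AT, a difference of -2.21 (SE 0.31, 4.63-fold lower, limma adjusted p = 9.15e-06). *Tmem255a* had 5.52, 6.10 and 7.27 in PTC and 7.86, 7.78, 8.21, 7.45 and 8.78 in *BRAF*(-) AT, a difference of -1.82 (SE 0.26). In both, the groups were apart. *Gpx2*, a glutathione peroxidase of epithelia, had 6.35, 7.08 and 8.10 in PTC and 8.12, 8.47, 9.78, 8.64 and 9.60 in *BRAF*(-) AT, a difference of -1.73 (SE 0.34). *Lrat*, which stores retinol as ester, had 5.50, 6.21 and 7.66 in PTC and 8.35, 8.32, 8.13, 8.55 and 8.41 in *BRAF*(-) AT, where the group was narrow, and fell by 1.78 (SE 0.37). The actin nucleator *Fmn2* (-1.72) was likewise without overlap. These 5 and *Scg3* (-1.94) were the 6 of the 15 that stayed called with the scores, and *Inmt* (-2.11), *Car4* (-1.96), *Dio1* and *Scgb1a1* (-2.16) did not. *Scgb1a1* had 4.42, 5.31 and 8.72 in PTC and 8.54, 10.11, 6.38, 8.43 and 6.92 in *BRAF*(-) AT, with overlap.

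Of 16 retinoid genes 2 rose and 3 fell, where 11.3% of all genes rose and 11.5% fell. *Stra6*, the receptor that takes up retinol from its carrier, had 6.99, 7.23 and 8.54 in PTC and 6.10, 6.37, 5.74, 6.45 and 6.03 in *BRAF*(-) AT, a difference of 1.29 (SE 0.22) with no overlap. *Aldh1a2*, which makes retinoic acid, rose by 1.15 (SE 0.30), while *Lrat*, *Dhrs3* (-0.49) and *Crabp1* (-0.37) fell.

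Genes of mitochondrial energy use fell together. Of 34 genes of the respiratory chain 28 fell and 0 rose (median -0.47), and of 14 genes of fatty acid oxidation 8 fell and 0 rose (median -0.50). *Ndufb8*, a subunit of complex I, had 7.89, 8.59 and 9.15 in PTC and 10.03, 9.59, 10.56, 9.07 and 9.71 in *BRAF*(-) AT, a difference of -1.12 (SE 0.21). *Acaa2*, the thiolase of mitochondrial beta-oxidation, had 9.61, 10.05 and 10.82 in PTC and 11.22, 10.89, 10.89, 11.06 and 11.06 in *BRAF*(-) AT, a difference of -0.87 (SE 0.18). In *Acaa2* the groups were apart, and in *Ndufb8* mouse M_956 overlapped with PTC. The respiratory chain count was 22 without mouse M_940, 20 in females alone and 2 with the muscle and adipocyte scores, and that of fatty acid oxidation was 9, 8 and 0. The brown adipocyte score itself holds the mitochondrial genes *Cox7a1*, *Cox8b* and *Ucp1*, so the fit with the scores is no independent check of these counts. In fatty acid synthesis 5 of 12 genes fell and 0 rose (median -0.60), led by *Thrsp* (-1.61) and *Acacb* (-1.17). That count was 3 without mouse M_940 or M_686, 2 without M_524 and 1 without M_956 or M_957.

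Genes of the C cells, which make calcitonin, had 4 of 7 lower and 0 higher (median -0.64). *Scg2*, a secretogranin, had 4.86, 5.49 and 6.19 in PTC and 8.41, 8.92, 7.47, 6.50 and 5.59 in *BRAF*(-) AT, and *Scg3*, outside the list, had 4.61, 5.01 and 6.76 in PTC and 8.38, 9.19, 6.84, 6.45 and 6.13 in *BRAF*(-) AT. In both genes the 2 male *BRAF*(-) AT mice were the highest, and the females came near to or within the range of PTC. *Grp* (-1.03), *Ddc* (-0.65) and *Chgb* (-0.64) were the other C cell genes that fell. The C cell count was 2 without mouse M_940 or M_686, 1 without M_524 or M_771 and 0 in females alone.

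The 18 genes that the study carried from mouse to human PTC were all called in the fit over all mice, 14 higher and 4 lower (median 1.02). Without mouse M_940 14 were higher and 2 lower, and the lower count was also 2 without M_524, M_686 or M_957. The study chose them on other comparisons, which held the *BRAF*(-) AT mice but not the PTC mice. It also compared its PTC mice with its *BRAF*(-) AT mice for all 18 genes and reported the same directions. The directions given here are therefore not independent evidence. *Slc34a2* led the increases, with 6.66, 9.15 and 9.47 in PTC and 6.45, 5.96, 5.91, 6.47 and 6.09 in *BRAF*(-) AT, and its lowest PTC was mouse M_700. *Itpr3* (1.26), *Pdlim4* (1.25), *Aldh3b1* (1.07), *Nectin3* (1.04), *Dcstamp* (1.01), *Grb7* (0.84) and *Lad1* (0.77) rose beside *Fn1*, *Plaur*, *Met*, *Rasa1*, *Erbb3* and *Epha2* above. *Dio1*, *Iqgap2* (-0.86), *Mmd* (-0.59) and *Aacs* (-0.55) fell. *Nectin3* is the mouse gene of *PVRL3*, which the study listed as lower in human *BRAF*(+) PTC, so that its direction here was the opposite. With the muscle and adipocyte scores 13 of the 18 stayed higher and 0 lower. Of 30 measured genes with raised levels in human PTC 15 rose and 3 fell (median 0.64), and 1 fell without mouse M_940. Among them *Hmga2*, an architectural chromatin protein of embryonic tissue, had 7.30, 8.87 and 9.46 in PTC and 6.78, 7.35, 6.86, 7.27 and 6.93 in *BRAF*(-) AT (1.57, SE 0.29), and the 3 that fell, named after their values were seen, were *Cited1* (-0.52), *Bcl2* (-0.33) and *Mmp7* (-0.32). Of 15 genes known to be lowered in human PTC 6 fell and 1, *Sorbs2*, rose (median -0.18), while 2 rose without mouse M_956 or M_957.

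The imprinted *Dlk1*-*Dio3* interval stood out among the called genes and was chosen after its values were seen. It lies on chromosome 12 (GRCm38.p6, chr12:109452485-110281097). In it the protein-coding genes *Dlk1*, *Rtl1* and *Dio3* are read from the paternal copy, and *Meg3*, *Rian* and a large set of microRNAs and small nucleolar RNAs from the maternal copy. RefSeq places 103 genes there, of which 48 were measured by a named probe set. Of these, 18 rose (37.5%), 1 fell (2.08%) and 11 had all PTC mice above all *BRAF*(-) AT mice, with a median of 0.29. Over all genes 11.3% rose and 3.77% were so separated.

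*Dlk1*, a membrane protein of the Notch ligand family best known from fetal tissue, had 8.54, 10.80 and 11.98 in PTC and 6.82, 6.61, 6.91, 6.82 and 6.89 in *BRAF*(-) AT. The PTC mice were spread over more than 3 log2 units above a narrow group, and the difference was 3.41 (SE 0.43, 10.6-fold, limma adjusted p = 1.22e-06). *Meg3*, a long noncoding RNA, had 8.65, 9.84 and 11.25 in PTC and 7.46, 8.10, 6.62, 6.86 and 6.75 in *BRAF*(-) AT, a difference of 2.82 (SE 0.41). *Rian*, the noncoding host of small nucleolar RNAs, had 5.33, 6.04 and 7.38 in PTC and 4.51, 4.80, 4.29, 4.60 and 3.94 in *BRAF*(-) AT, a difference of 1.81 (SE 0.35). All 3 were without overlap, and they include genes read from either parental copy. *Rtl1* (-0.09) and *Dio3* (0.16), which are also read from the paternal copy, were at 4.57 to 5.99 in PTC and at 4.91 to 5.42 in *BRAF*(-) AT and were not called. *Dlk1* was the only gene of the interval called in *BRAF*(+) AT against *BRAF*(-) AT, and 8 rose in PTC against *BRAF*(+) AT.

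Of the 40 microRNA genes measured in the interval 13 rose and 1 fell, against 14 that rose and 17 that fell among 260 microRNA genes elsewhere (medians 0.28 and -0.07). These probe sets read the primary or hairpin transcript and not the mature microRNA. The mature forms of the 4 with the largest increases are printed from RefSeq (GRCm38.p6, chromosome 12, plus strand) with the seed, bases 2 to 8, in capitals, together with miR-146b-5p of chromosome 19 (plus strand), a microRNA with raised levels in human PTC.

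miR-377-5p: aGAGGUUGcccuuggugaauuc
miR-377-3p: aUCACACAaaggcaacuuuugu
miR-380-5p: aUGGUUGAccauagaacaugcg
miR-380-3p: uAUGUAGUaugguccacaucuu
miR-323-5p: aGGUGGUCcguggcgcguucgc
miR-323-3p: cACAUUACacggucgaccucu
miR-382-5p: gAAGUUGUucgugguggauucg
miR-382-3p: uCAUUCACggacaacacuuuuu
miR-146b-5p: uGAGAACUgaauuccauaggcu

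No seed was shared among the 28 mature sequences of the 15 microRNA genes looked up, that is the 14 called in the interval and *Mir146b*. *Mir377* had 4.50, 5.43 and 6.94 in PTC and 3.86, 4.46, 3.68, 3.96 and 3.43 in *BRAF*(-) AT, a difference of 1.59 (SE 0.35). *Mir380* had 3.88, 4.42 and 6.37 in PTC and 3.31, 3.42, 3.12, 3.11 and 3.26 in *BRAF*(-) AT, a difference of 1.42 (SE 0.34). Both were separated, at low signals. *Mir323* rose by 1.304 (SE 0.34) and *Mir382* by 1.09 (SE 0.26), and the exception was *Mir666*, which had 6.40, 6.66 and 6.78 in PTC and 6.98, 6.87, 7.41, 7.07 and 6.97 in *BRAF*(-) AT and fell by 0.46 (SE 0.11). *Mir146b*, at another locus, had 5.49, 5.97 and 6.95 in PTC and 5.33, 5.43, 5.36, 5.67 and 5.22 in *BRAF*(-) AT, with 9 of the 10 PTC mice above. Its difference was 0.65 (SE 0.20, limma adjusted p = 0.0198, and 0.0545 without mouse M_940).

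**Figure D4:**
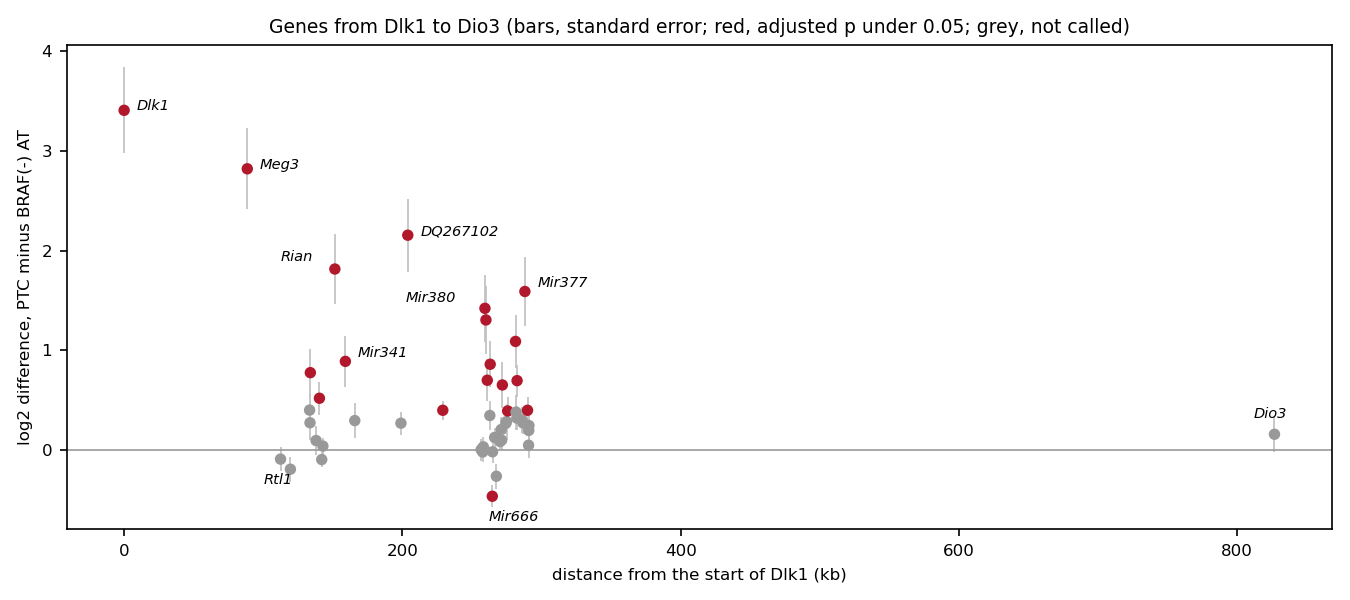
Log2 difference, PTC minus *BRAF*(-) AT, with its standard error for the 48 measured genes between *Dlk1* and *Dio3*, by distance from the start of *Dlk1* in kb (red, adjusted p under 0.05; grey, not called). *Dlk1* (3.41) and *Meg3* (2.82) are the highest, and *Dio3* (0.16) stands alone at the far end.

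PTC mice also differed by sex. The difference between PTC and *BRAF*(-) AT was itself different in males and in females for 64 probe sets (0.18%), 45 of them larger in males and 19 smaller, in a fit of the 15 mice with 2 males in each group. *Cuzd1*, a CUB domain protein known from pancreas and uterus, was at 10.39 and 8.82 in the 2 male PTC mice and at 4.40 to 5.21 in the 8 females, against 4.55 to 4.78 in male and 4.50 to 4.71 in female *BRAF*(-) AT. Its effect in males exceeded that in females by 4.77 (SE 0.42, limma adjusted p = 2.14e-04). *Sult1e1*, the estrogen sulfotransferase, was at 8.00 and 7.62 in male PTC and at 4.07 or less in female PTC, against 3.12 or less in *BRAF*(-) AT of both sexes. *Sval2* (4.60), *Csn3*, the milk protein kappa-casein (4.38), *Phf11c* (3.77), its chromosomal neighbour *Setdb2*, a histone methyltransferase (3.41), *Ap1s2* (3.13) and *Adam7* (2.997) completed the 8 with the largest excess in males (in parentheses, the effect in males minus that in females). For each of these 8 genes the 2 male PTC mice were the highest of the 15 mice.

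The 4 other *BRAF*(+) males of the series (2 BL, 1 AT and 1 BHL) and the 15 other *BRAF*(+) females had not entered that fit. *Cuzd1* was at 7.496 to 9.87 in these males and at 4.198 to 5.09 in these females. *Sult1e1* was at 4.34 to 8.25 in the males and at 2.83 to 3.59 in the females. Neither pair overlapped, with an exact two-sided permutation p of 2.58e-04, the smallest that 3876 permutations can give, and 5.16e-04 after adjustment over the 16 genes tested. The same held for *Sval2*, *Csn3*, *Phf11c* and *Setdb2*. Of the 45 probe sets with an excess in males 41 were higher in the other *BRAF*(+) males than in the other *BRAF*(+) females, and 12 had all 4 males above all 15 females, which was so for 0.141% of all probe sets.

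*Sema3c*, a guidance factor of the semaphorin family, had the opposite pattern. It was at 6.30 and 6.44 in male PTC and at 8.06 to 9.36 in female PTC, against 6.52 to 6.55 in male and 5.92 to 6.75 in female *BRAF*(-) AT, so that it was raised in female PTC alone (-2.27, SE 0.41). In the other *BRAF*(+) mice it was at 5.82 to 6.33 in males and at 6.78 to 8.85 in females, and *Pcdh9*, a protocadherin with an effect of -2.14, was at 5.08 to 5.55 in males and at 5.68 to 7.19 in females. Both again had all 4 males below all 15 females, as 0.118% of all probe sets did, with the same smallest p. Of the 19 probe sets with a smaller effect in males 12 were lower in the other males. Among the 16 genes tested 13 had the same sign there and 12 an adjusted p under 0.05. In *Resp18*, *Dner* and *Far2* the sign differed, and the 2 male *BRAF*(-) AT mice had the highest values of the 15. Without *BRAF*(-) AT mouse M_524 the count was 19 probe sets. Young and male PTC mice were partly the same, since both males were under 9 months. By the study's description the young PTC mice were of line tg2 and the older ones of line tg3, which the labels do not give, so that age and line cannot be told apart. Between the 3 PTC mice under 9 months and the 7 older ones 1 of 35556 probe sets was called (0.00281%), a probe set with several gene symbols, and 1321 had an unadjusted p under 0.05 by limma.

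**Figure D5:**
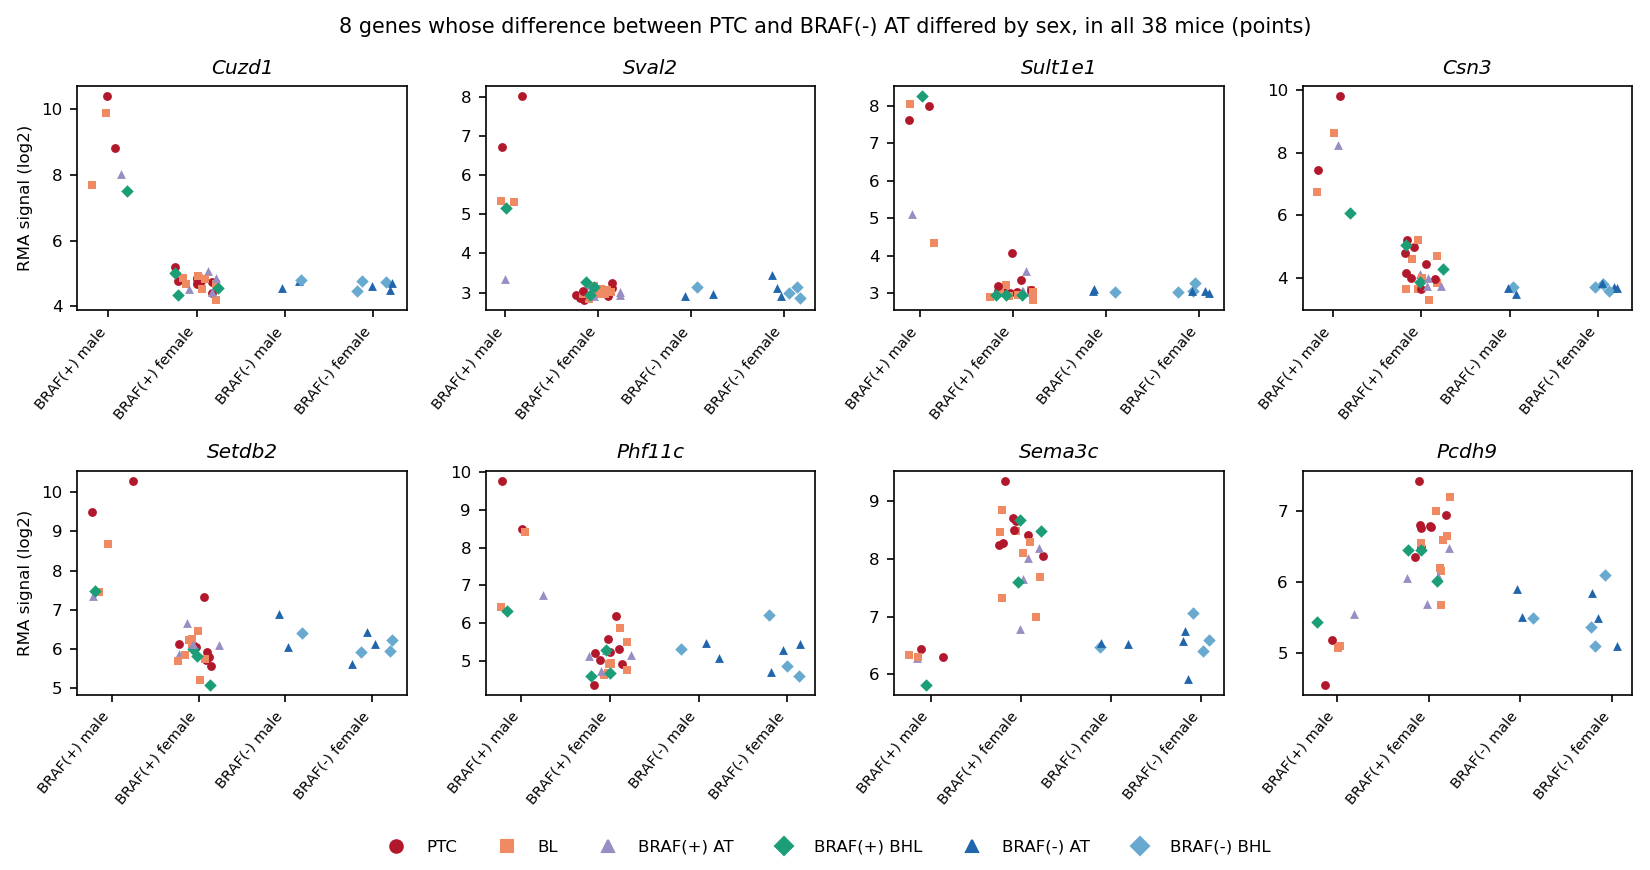
Log2 RMA signal of 8 genes in all 38 mice by *BRAF* status and sex (points; symbols mark the lesion). For *Cuzd1* every *BRAF*(+) male lies at 7.496 or more and every other mouse at 5.21 or less, and for *Sema3c* the *BRAF*(+) females lie above the *BRAF*(+) males.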

How the data were processed

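RNA from 1 portion of the thyroid of each mouse was hybridised to 1 GeneChip Mouse Gene 1.0 ST array. The authors deposited log2 values of 35556 probe sets from RMA, which corrects background, quantile-normalizes the arrays and summarises the probes of each probe set; the version of RMA and the genome build are not given in the sources used here. The values ran from 2.04 to 14.18, and correlations between arrays from 0.944 to 0.991. The number of mice limits the precision. 0 columns belonged to no sample.

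Groups, sex and age were taken from the sample labels. Each comparison was a contrast of a linear model over all 38 mice with 6 groups and sex (limma 3.58.1, lmFit and eBayes, R 4.3.3), without a filter and with Benjamini-Hochberg adjustment over all probe sets at 0.05. The effect in males minus that in females was fitted in the 15 mice. On simulated data with 200 of 35556 probe sets changed in PTC against *BRAF*(-) AT, the fit recovered 62%, 84% and 98% at log2 changes of 0.5, 1 and 2. Symbols came from the platform annotation: 21789 probe sets had 1 symbol, 1621 had several and 12146 were not listed, and a gene was represented by its probe set with the highest mean over the 38 mice (19938 genes). Tables and figures were made with Python 3.11.15, numpy 2.4.6, pandas 2.3.3 and matplotlib 3.10.9.

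Named were the 15 highest and 15 lowest called genes, *Braf*, all thyroid list members, the study's 18 genes, up to 6 called members of each other list with the largest difference (or the 2 with the smallest p where fewer than 2 were called), and the 8 highest and 8 lowest called genes of each other comparison. There were 46 lists with 592 distinct measured genes. The members and lists were chosen with earlier results of these data known, and lists are described by counts and medians. Alternatives were the flat filter of the methods (at least 20% of mice 1.5-fold from the median, which kept 4388 probe sets), a filter on mean signal, probe sets with 1 symbol, centring, quantile normalization, unmoderated and robust variances, array weights, other covariates, females, only the groups compared, a 1.5-fold minimum, the exact Wilcoxon rank test, PTC mice of 9 months or more, and leaving out each mouse.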

Additional observations from a re-analysis of the deposited data

Results flagged for a closer look

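In 80 genes, PTC and *BRAF*(-) AT were searched for a mouse that stood far from the rest of its group, and 19 of 160 groups had one (14 in PTC and 5 in *BRAF*(-) AT), where chance gives about 1 in 20. PTC mouse M_700, a male of 6 months, accounted for 8 of them. It was the highest PTC for *Scg3* (6.76), *Tmem255a* (7.27) and *Slc5a8* (9.99), which were lower in the other PTC mice. It was the lowest PTC for *Ccnd1* (10.41), *Dusp6* (9.23), *Slc34a2* (6.66) and *Lad1* (7.203), genes that rose in PTC, and it stood apart for *Nkx2-1* (9.32). PTC mouse M_686, the other male, stood apart for *Cox8b* (5.11), *Cidea* (4.39) and *Pdlim4* (8.80), PTC mouse M_415 for *Ano1* (8.44) and *Kcnq1* (8.01), and PTC mouse M_347 for *Slc26a4* (7.62). Among *BRAF*(-) AT mice, mouse M_940 stood apart for *Tg* (13.63), *Thrb* (6.51) and *Egr1* (8.45), mouse M_524 for *Lrrn1* (8.65) and mouse M_771 for *Dcstamp* (4.86).

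The difference between PTC and *BRAF*(-) AT itself differed by sex, by the interaction in the fit of the 15 mice, for the genes below. The effect in males minus that in females was 4.77 for *Cuzd1*, 4.60 for *Sval2*, 4.53 for *Sult1e1*, 4.38 for *Csn3*, 3.77 for *Phf11c*, 3.41 for *Setdb2*, 3.13 for *Ap1s2* and 2.997 for *Adam7*. It was -4.04 for *Snord47*, -2.27 for *Sema3c*, -2.14 for *Pcdh9*, -1.93 for *Adamtsl2*, -1.83 for *Resp18*, -1.68 for *Dner*, -1.53 for *Sema3e* and -1.29 for *Far2*. There were 2 males in each group, and both PTC males were under 9 months. The other PTC mouse of that age, the female M_884 of 7 months, had *Cuzd1* at 5.21, *Sult1e1* at 3.19 and *Sval2* at 3.04. *Cuzd1* was at 8.04 in the *BRAF*(+) AT male M_523 of 10 months, at 9.87 in the BL male M_80 of 11 months and at 4.43 in the *BRAF*(+) AT female M_779 of 7 months.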

How the results depend on the processing

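No paired analysis was possible because mouse numbers are not shared between groups. PTC against *BRAF*(-) AT gave 6686 probe sets (3484 higher, 3202 lower). It gave 1732 (1264 and 468) with the flat filter, 2814 (1629 and 1185) with muscle and adipocyte scores, 3756 (2143 and 1613) in females and 2371 (1609 and 762) with a 1.5-fold minimum. Of the 6686, 2582 stayed called in the same direction with the scores and 3347 in females. Leaving out 1 mouse gave 3935 to 6572 (2084 to 3505 higher and 1851 to 3130 lower), with 3935 without *BRAF*(-) AT mouse M_940, of which 3697 were among the 6686. PTC against *BRAF*(+) AT, 5309 probe sets, gave 1247 with the flat filter, 1541 with the scores, 2651 in females, 1533 with the fold minimum and 2486 to 5701 without 1 mouse. *BRAF*(+) AT against *BRAF*(-) AT, 91 probe sets, gave 170 with the flat filter, 452 with array weights, 52 in females, 18 with only the groups compared, 0 with the exact Wilcoxon test and 46 to 288 without 1 mouse. PTC against BL stayed at 0 in every alternative run. The interaction with sex, 64 probe sets, gave 22 with the flat filter, 35 with the mean filter, 108 with 1-symbol probe sets, 21 unmoderated, 9 with the scores, 35 with all 38 mice and 19 to 94 without 1 mouse. Young against older PTC, 1 probe set, gave 0 with the flat filter, the mean filter, 1-symbol probe sets, the scores and the Wilcoxon test, 3 with array weights, without covariates, in females and with only the groups compared, and 0 to 9 without 1 mouse. The interaction could not be fitted without covariates, in females, by the Wilcoxon test or with PTC mice of 9 months or more.

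Of 1818 values of 59 genes under the alternatives, 1717 kept direction and call, 99 lost the call and 2 changed sign, *Elovl3* (0.0461) and *Cidea* (0.22) with the scores. With the scores, 22 of the 59 lost their call. *Nras*, *Col4a2*, *Vim*, *H2-DMa*, *Ccl22* and *Pdgfrb* were not called with arrays centred on their medians. The causes were not tested. The groups of 5 mice limit the smaller differences, and arrays give no order between probe sets of low signal.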

Other observations

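Gene groups outside the main comparisons differed little between PTC and *BRAF*(-) AT, apart from the genes of red blood cells. Of 16 genes of the unfolded protein response and secretion, *Xbp1*, a transcription factor of secretory cells, rose by 0.42 and *Atf4*, a stress-induced transcription factor, fell by 0.29. Of 11 interferon response genes 0 rose and 1 fell, *Rsad2* (-0.83), and of 9 squamous epithelium and 5 thymus genes 0 were called. Of 7 cartilage genes, *Col2a1* fell by 0.35. *Pth*, the parathyroid hormone gene, was at 3.002, 3.36 and 12.77 in PTC and at 12.87, 3.37, 3.72, 3.53 and 3.28 in *BRAF*(-) AT, so that 1 or more mice of each group had a high value. Of 3 measured red blood cell genes 2 fell and 0 rose, where 11.5% of all genes fell. *Alas2*, the first enzyme of heme synthesis in these cells, fell by 1.05 and *Slc4a1* by 0.37. In fits without 1 mouse, 0 to 2 of the 3 fell. Calls were lost in fits without 1 *BRAF*(-) AT mouse, with limma adjusted p of 0.224 for *Xbp1* without M_940, 0.101 for *Atf4* without M_940, 0.205 for *Rsad2* without M_957 and 0.214 for *Alas2* without M_957.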
